A study of Mus musculus with 2 samples.

Results

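CD11b, the alpha-M chain of a leukocyte integrin and the surface protein that the therapeutic exosomes of this study were built to bind, was followed in tumor-infiltrating cells together with 8 other integrin chains that leukocytes use. The 9 genes were taken by symbol from the 32285 genes of each count table: Itgam (CD11b), Itgb2 (CD18), Itgal (CD11a), Itgax (CD11c), Itga4 (CD49d), Itgb1 (CD29), Itgb7, Itgae (CD103) and Itga1 (CD49a). Every one of them was detected in both libraries.

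Integrins are pairs of one alpha and one beta chain that let a cell hold on to other cells and to matrix, and they bind firmly only after signals inside the cell open them. Itgb2 pairs with Itgam, Itgal or Itgax in the family that leukocytes alone carry, where the pair with Itgam serves neutrophils and macrophages in adhesion and in the uptake of complement-coated particles, and the pair with Itgal serves T cells in binding ICAM proteins. Itga4 pairs with Itgb1 to bind VCAM1 or with Itgb7 to bind the gut address protein MAdCAM1, Itgae pairs with Itgb7 to bind E-cadherin, and Itga1 pairs with Itgb1 to bind collagen, the latter pairs being known on T cells that stay in tissues.

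Each treatment had 1 single-cell RNA sequencing library, a pool of cells from the pancreatic tumors of 3 mice taken 48 h after treatment. The hosts were male C57BL/6J mice, 5 to 6 weeks old when obtained, that carried an orthotopic tumor grown from K210 cells, a mouse pancreatic tumor line. The control pool had received PBS, and the second had received cmExoaCD11b, exosomes of mouse embryonic fibroblasts loaded with IL-12 mRNA and with the STING agonist cGAMP and displaying a CD11b antibody. In the treatment experiment of the study these were injected intraperitoneally every 3 days from day 7, at 5 µg of cGAMP per mouse. A separate schedule for the sequenced mice was not given. The effects of the antibody, the IL-12 mRNA and the cGAMP cannot be told apart in this pair of libraries, and with 1 pool for each treatment no test between treatments exists. Levels are therefore given as UMIs (unique transcript tags) of a gene summed over a cell class, per 1000000 UMIs of that class (CPM), and every 95% interval, in brackets, covers counting error only.

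After cell calling and filtering, 6837 cells were kept in PBS and 7074 in cmExoaCD11b, with medians of 3467 and 4115.5 UMIs per cell, and 15 barcodes occurred in both libraries. Cells were placed in classes by lists of marker genes that hold none of the 9 integrins, so the integrin levels below did not shape the classes. This differs from the cell naming of the study, which used Itgam together with Adgre1 for macrophages and Itgax together with H2-Aa for dendritic cells. The study also checked its clusters against ImmGen data. The gates took 5320 (77.81%) and 6096 (86.17%) cells, of which 3877 and 4032 were neutrophil-like. The other classes with at least 50 cells in both libraries were macrophage-like (267 in PBS and 74 in cmExoaCD11b), monocyte-like (181 and 272), CD8 T-like (153 and 364), CD4 T-like (152 and 242), T-lineage cells without a Cd4 or Cd8 call (163 and 377), B-like (291 and 299) and plasma-like (57 and 150). The top genes of these classes included markers of their own gates, such as Ngp, Retnlg and Camp in neutrophil-like and C1qa, C1qb and C1qc in macrophage-like cells. The rank of a gate marker is no check of the class name. Top genes outside the gate lists were Lcn2, Pglyrp1 and Cd177 in neutrophil-like cells, and in macrophage-like cells Pf4, Arg1 and Mmp12 among others. A marker of another class, Gzma, was among the top genes of CD8 T-like cells. NK-like cells (32 and 119) and cDC1-like cells (20 and 52), the type of dendritic cell that presents antigen to CD8 T cells, were smaller, and their values are given without a ratio between treatments.

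On the mouse genome, the beta2-pairing alpha chains lie close together. In GRCm38 (GENCODE annotation, matched by gene identifier, since the build behind the counts was not given in the sources used here), Itgam spans chr7:128062640-128118491 on the plus strand, and Itgax follows 11055 bases downstream at chr7:128129547-128150657. Itgal lies 727501 bases upstream of Itgam at chr7:127296260-127335138, while the beta chain Itgb2 is at chr10:77530252-77565708. The remaining chains are scattered, with Itga4 at chr2:79255426-79333123, Itgb1 at chr8:128685654-128733200, Itgb7 at chr15:102215995-102231944, Itgae at chr11:73090583-73147446 and Itga1 at chr13:114953096-115101964.

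The 250 bases before the starts of the neighbors Itgam and Itgax (RefSeq, GRCm38.p6, plus strand, 5′ to 3′) are shown because these genes sit side by side yet were highest in different cells. Capitals mark the letters GAGGAA, found in many binding sites of the myeloid factor PU.1, or their reverse complement TTCCTC, both strands having been searched with no other motif.
Itgam chr7:128062390-128062639: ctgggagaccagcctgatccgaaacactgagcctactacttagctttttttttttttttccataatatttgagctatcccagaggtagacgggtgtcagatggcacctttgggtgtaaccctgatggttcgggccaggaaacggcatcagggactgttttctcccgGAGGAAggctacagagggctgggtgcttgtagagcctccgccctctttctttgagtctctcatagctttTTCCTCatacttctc
Itgax chr7:128129300-128129549: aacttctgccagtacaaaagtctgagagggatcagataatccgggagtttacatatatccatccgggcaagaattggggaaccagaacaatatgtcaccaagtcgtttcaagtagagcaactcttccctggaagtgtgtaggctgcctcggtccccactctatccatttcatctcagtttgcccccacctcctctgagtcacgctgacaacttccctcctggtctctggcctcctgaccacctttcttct
The Itgam window held a match 84 bases before the start on the plus strand and another 15 bases before it on the minus strand, and the Itgax window held none. Of the 6 members with a promoter entry, 2 had a match, the other being Itgb1, at 9 bases. As 23.3% of the 32851 mouse promoters of this length hold the motif, the match is a description of these letters and of nothing else.

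Itgam was carried by myeloid cells in both libraries. In PBS its level was 465 CPM (444.8–486.0) in macrophage-like, 450.7 CPM (424.2–478.5) in monocyte-like and 438.6 CPM (431.1–446.2) in neutrophil-like cells. In cmExoaCD11b the order was neutrophil-like at 429.2 CPM (422.9–435.6), macrophage-like at 369 CPM (329.6–411.8) and monocyte-like at 246.4 CPM (231.2–262.4). B-like cells, which should lack CD11b, gave the background, with 28.63 CPM (21.18–37.85) and 22.82 CPM (15.61–32.22). In PBS, 19 of its 49 UMIs came from 1 cell. The PBS B-like cells with an Itgam UMI held 25685 CPM of neutrophil markers, against 2251 CPM in those without. In cmExoaCD11b these values were 3940 and 2545 CPM. The part of neutrophil RNA in this background, and so in the folds over it, was not tested. Neutrophil-like cells were thus 15.32 times (11.58–20.72) the B-like level in PBS and 18.81 times (13.32–27.5) in cmExoaCD11b.

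The neighbors in that order were close in PBS and apart in cmExoaCD11b. Macrophage-like over monocyte-like Itgam was 1.032 (0.9575–1.112) in PBS, an interval that includes 1, and 1.497 (1.315–1.701) in cmExoaCD11b. Monocyte-like over neutrophil-like Itgam was 1.028 (0.9648–1.094) in PBS and 0.5742 (0.5378–0.6124) in cmExoaCD11b. Macrophage-like over neutrophil-like Itgam was 1.06 (1.011–1.112) and 0.8597 (0.7672–0.9604). These classes differed in depth, with median UMIs of 14536 and 3729 in PBS. At 1000 UMIs per cell the PBS order turned, as an Itgam UMI was found in 30.8% (25.27–36.76) of macrophage-like and 37.9% (36.35–39.47) of neutrophil-like cells. In cmExoaCD11b the shares were 33.33% (22.66–45.43) and 32.47% (31.0–33.96). In PBS the intervals met only between 36.35 and 36.76, with the macrophage-like share the lower, and in cmExoaCD11b they overlapped widely. Overlap of intervals is no test of equality. An order of these classes that holds in both libraries could not be given at equal depth.

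**Figure D1:**
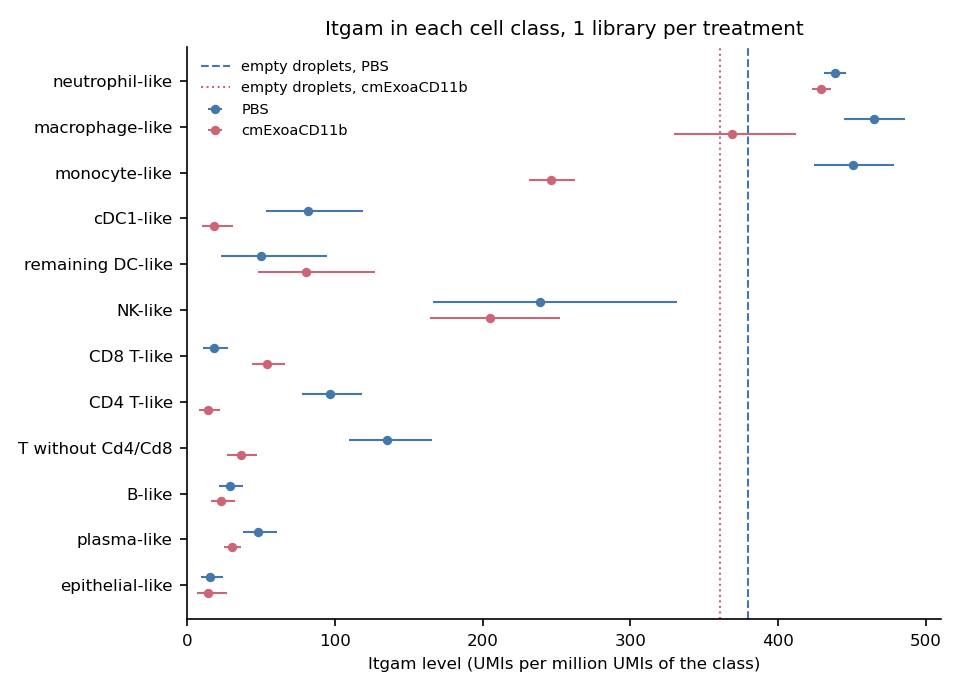
Itgam level (CPM, linear axis) in each cell class of the PBS and cmExoaCD11b libraries, with bars for the 95% counting interval and vertical lines at the empty-droplet levels of 379.9 and 360.4 CPM. Neutrophil-, macrophage- and monocyte-like classes lie between 246.4 and 465 CPM, NK-like cells at 238.6 and 205.1 CPM, and B-like cells at 28.63 and 22.82 CPM.

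Lymphoid classes held little Itgam, with NK-like cells as the exception. NK cells are known to gain CD11b as they mature, and here the NK-like level was 238.6 CPM (166.2–331.8) in PBS and 205.1 CPM (164.5–252.6) in cmExoaCD11b, 8.331 times (5.24–13.12) and 8.985 times (5.933–13.92) the B-like level. In the PBS library this level moved with neutrophil transcripts: the 18 NK-like cells with an Itgam UMI held 76666 CPM of the 8 neutrophil markers, against 3622 CPM in the 14 without. In cmExoaCD11b the 53 cells with and the 66 without an Itgam UMI held 3660 and 3126 CPM of those markers, and the NK markers stood at 14045 and 8021 CPM.

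The dendritic classes also stood low. In cDC1-like cells Itgam was at 81.31 CPM (53.12–119.1) and 18.26 CPM (9.982–30.64), and in the remaining DC-like cells (18 and 27) it was at 49.9 and 80.4 CPM. Epithelial-like cells (53 and 33), which express tumor keratins, stood at 15.05 and 13.99 CPM.

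By amount, the Itgam transcript pool was mainly neutrophil. Neutrophil-like cells held 78.06% (77.42–78.68) of the 16537 gated Itgam UMIs in PBS and 90.72% (90.31–91.13) of 19360 in cmExoaCD11b, against 65.91% and 70.32% of the UMIs of all genes. Macrophage- and monocyte-like cells together held 19.39% in PBS and 6.968% in cmExoaCD11b. The macrophage-like part alone was 12.01% in PBS and 1.648% in cmExoaCD11b, beside 9.564% and 1.486% of the UMIs of all genes. The monocyte-like part was 6.507% and 5.046%, beside 5.346% and 6.812% of the UMIs of all genes. T-lineage cells held 1.252% and 0.8574%, and DC-like cells 0.2116% and 0.1653%.

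Counted by cells, the split was similar. Of the 3573 gated PBS cells with an Itgam UMI, 84.33% were neutrophil-like, 6.521% macrophage-like and 4.478% monocyte-like. The 3572 such cells in cmExoaCD11b were 86.0% neutrophil-like, 1.54% macrophage-like and 6.103% monocyte-like. Cells carrying CD11b transcript in these tumors were therefore mostly neutrophil-like in both libraries, as were the gated cells as a whole (3877 of 5320 in PBS and 4032 of 6096 in cmExoaCD11b). An Itgam UMI was found in 87.27% and 74.32% of macrophage-like and 88.4% and 80.15% of monocyte-like cells. In neutrophil-like cells it was found in 77.71% and 76.19%, at unequal depths.

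**Figure D2:**
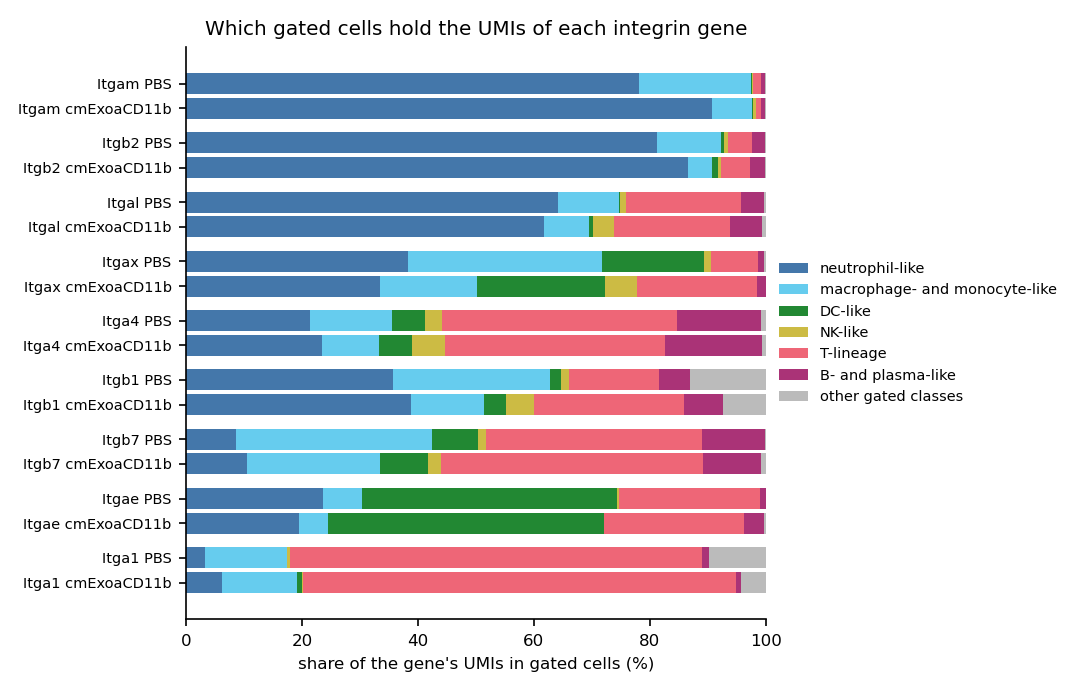
Share (percent) of the gated UMIs of each integrin that lay in each group of cell classes, 1 stacked bar per gene and library. Neutrophil-like cells hold 78.06% and 90.72% of Itgam, while T-lineage cells hold 70.97% and 74.66% of Itga1.

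Not every class carried the transcript in every cell. A neutrophil-like cell had a median of 2 Itgam UMIs in both libraries, with upper quartiles of 5 and 6 and highest values of 50 and 54. At least 1 UMI was seen in 77.71% of neutrophil-like cells in PBS and 76.19% in cmExoaCD11b, against 6.529% and 9.03% of B-like cells, at median depths of 3729 and 5226 UMIs for neutrophil-like and 3410 and 3738 for B-like cells. With each cell thinned to 1000 UMIs, which left 3768 and 3921 neutrophil-like cells, these shares were 37.9% (36.35–39.47) and 32.47% (31.0–33.96), against 2.222% (0.8198–4.774) and 2.857% (1.241–5.552) in B-like cells.

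Free RNA in the droplets was itself rich in Itgam. Empty droplets held 379.9 CPM (360.0–400.6) in PBS and 360.4 CPM (341.1–380.5) in cmExoaCD11b, beside 80951 and 90248 CPM of the neutrophil markers. Droplets simulated from free RNA alone entered the neutrophil-like gate, so the shallow neutrophil-like cells rest on the cell call. The B-like Itgam level was only 7.538% and 6.333% of the empty-droplet level.

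Between the libraries, the summed Itgam level of neutrophil-like cells was 438.6 CPM in PBS and 429.2 CPM in cmExoaCD11b, a ratio of 0.9786 (0.9565–1.001). That near-equality hid a turn with cell depth, seen in a split made after the values were known. Neutrophil-like cells with 500 to 2000 UMIs (516 and 549 cells) held 690.5 and 481.8 CPM, a ratio of 0.6977 (0.6087–0.7992), and those with 2000 to 5000 UMIs (1949 and 1423 cells) had a ratio of 0.7398 (0.698–0.7838). At 5000 to 20000 UMIs (1048 and 1465 cells) the levels were 489.1 and 475.6 CPM with a ratio of 0.9724 (0.9392–1.007), and at 20000 or more (364 and 595 cells) they were 315.7 and 397.9 CPM with a ratio of 1.26 (1.211–1.312). Itgam was therefore lower in cmExoaCD11b among shallow cells and higher among the deepest, and no single direction describes the class.

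The depth of a neutrophil-like cell followed its state. Granule-making immature cells (Ltf, Camp, Ngp and others) had medians of 16964 and 16239 UMIs, mature cells (Retnlg, Mmp8, Cxcr2) 3674 and 4273, and cells with the tumor-associated list (Ccl3, Ccl4, Vegfa) 3126 and 2725. Immature cells made up 20.43% (19.17–21.73) of neutrophil-like cells in PBS and 26.02% (24.67–27.4) in cmExoaCD11b, mature cells 30.69% and 42.61%, and tumor-state cells 30.02% (28.58–31.49) and 13% (11.97–14.07). The remainder matched no single state. These shares come from 1 library each.

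Itgam differed in direction between the states. In immature cells it stood at 337.2 CPM in PBS and 379.4 CPM in cmExoaCD11b, a ratio of 1.125 (1.086–1.166). In mature cells it stood at 585.9 and 476.2 CPM, a ratio of 0.8127 (0.7794–0.8476), and in tumor-state cells at 492.2 and 478.6 CPM, a ratio of 0.9723 (0.896–1.054). Cells of no single state had 555.5 and 489.7 CPM, a ratio of 0.8815 (0.8335–0.9325). Within each library immature cells stood below mature ones, at 0.5754 (0.5515–0.6005) of the mature level in PBS and 0.7967 (0.7699–0.8246) in cmExoaCD11b. The state markers include none of the integrins, but states and depths overlap, and their parts in these ratios cannot be told apart.

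**Figure D3:**
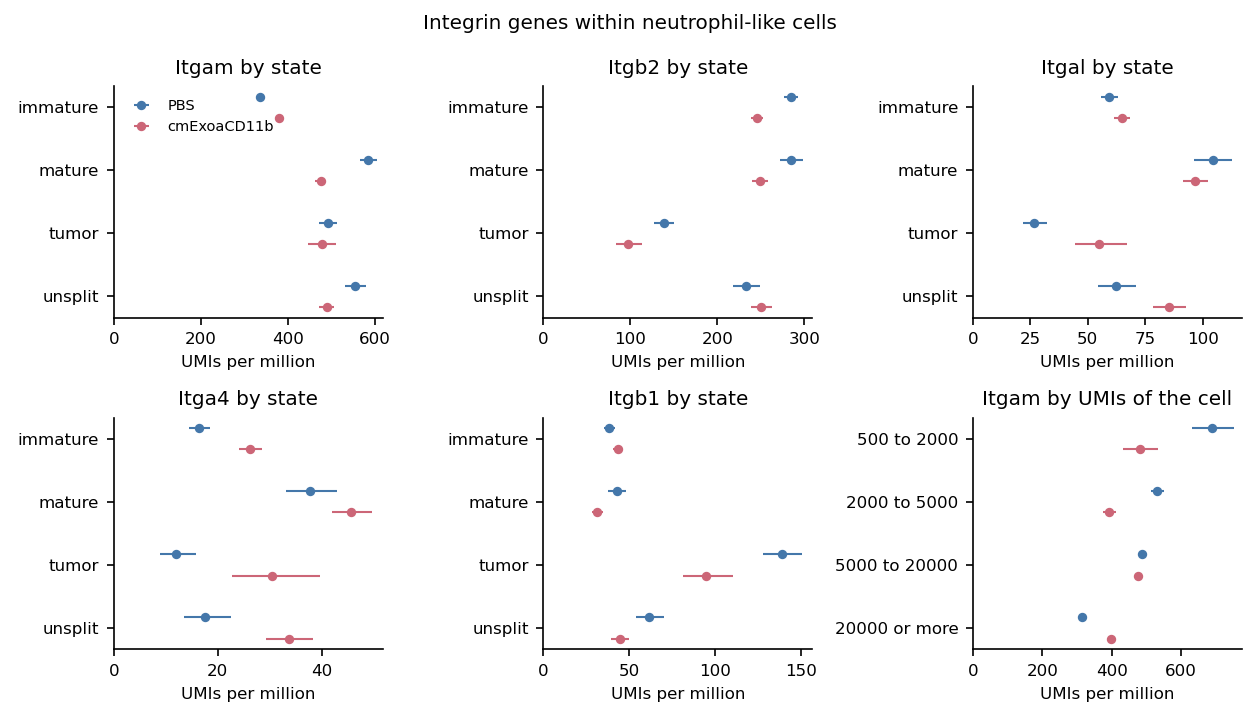
Levels (CPM) of Itgam, Itgb2, Itgal, Itga4 and Itgb1 by state of the neutrophil-like cells, and of Itgam by their UMIs, in both libraries, with bars for the 95% counting interval. Itgam is higher in cmExoaCD11b in immature cells (337.2 against 379.4 CPM) and lower in mature cells (585.9 against 476.2 CPM).

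Monocyte-like cells showed the lower Itgam level more evenly. The summed level was 450.7 CPM in PBS (1076 UMIs) and 246.4 CPM in cmExoaCD11b (977 UMIs), a ratio of 0.5468 (0.5009–0.5968), and the median cell held 4 and 2 Itgam UMIs at near-equal median depths of 11042 and 11085. By depth, the ratio was 0.5053 (0.3524–0.719) at 2000 to 5000 UMIs, 0.6193 (0.5527–0.6938) at 5000 to 20000 and 0.5156 (0.441–0.6027) at 20000 or more, below 1 in each. Without the cell with most Itgam UMIs in each library it was 0.561. In these same cells the neutrophil markers stood at 8807 CPM in PBS and 14215 CPM in cmExoaCD11b, and the part of neutrophil RNA in the ratio was not tested.

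Macrophage-like cells had 465 CPM in PBS (1986 UMIs) and 369 CPM in cmExoaCD11b (319 UMIs), a ratio of 0.7934 (0.7028–0.8935), and their median cell held 5 and 3 UMIs at median depths of 14536 and 9469.5. Thinned to 1000 UMIs per cell the ratio was 1.063, on the other side of 1, but it rested on 110 and 32 UMIs. With every cell weighted equally the levels were 454.0 and 374.9 CPM. Whether the direction depended on depth could not be told from so few UMIs.

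Itgam in T-lineage and plasma-like cells was lower than in the myeloid classes and came from few cells. It was not at the B-like level throughout, standing at 3.371 times (2.356–4.873) that level in CD4 T-like cells of PBS and at 2.36 times (1.566–3.641) in CD8 T-like cells of cmExoaCD11b. In CD8 T-like cells it was 17.72 CPM (10.82–27.37) in PBS, 0.6189 times (0.3485–1.061) the B-like level, an interval that includes 1. In cmExoaCD11b it was 53.85 CPM (43.57–65.83), a ratio between libraries of 3.039 (1.862–5.198) from 20 and 95 UMIs that ran from 1.402 without doublet removal to 6.477 after thinning. The 31 cmExoaCD11b cells that held those UMIs carried 10655 CPM of neutrophil markers, against 2717 CPM in the 333 without one. In CD4 T-like cells it was 96.51 and 13.7 CPM, a ratio of 0.142 (0.07927–0.24), but 48 of the 91 PBS UMIs came from 1 cell, and the 12 PBS cells with an Itgam UMI held 46251 CPM of neutrophil markers against 2264 CPM in the 140 without. That ratio was 0.9769 with a lead of 2 markers asked for in the gate, 0.5265 after thinning and 0.06955 on the most deeply sequenced cells alone. T-lineage cells without Cd4 or Cd8 had 135.1 and 36.04 CPM, a ratio of 0.2668 (0.1864–0.3783), and their PBS cells with an Itgam UMI held 1386 CPM of macrophage and monocyte markers against 422.8 CPM in those without, and 2608 against 3339 CPM of neutrophil markers. In cmExoaCD11b the same markers stood at 421.2 against 570.3 CPM and at 6116 against 3285 CPM. Plasma-like cells had 47.89 and 30.14 CPM, a ratio of 0.6294 (0.4633–0.8601), with neutrophil markers at 17310 against 979.7 CPM in PBS and 29270 against 1108 CPM in cmExoaCD11b. Over the processing settings the Itgam ratio ran from 1.061e-06 to 0.5826 in T-lineage cells without Cd4 or Cd8. In plasma-like cells it ran from 0.4885 to 0.9459. The part of other cells' RNA in these 4 ratios was not tested.

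Itgb2, the beta partner of CD11b, reached its highest summed level in neutrophil-like cells among the classes with at least 50 cells. It stood there at 257.4 CPM in PBS and 241.1 CPM in cmExoaCD11b, a ratio of 0.9366 (0.9088–0.9651), and this class held 81.31% and 86.51% of its gated UMIs. Unlike that of Itgam, its summed level was near even between immature and mature cells (0.9983, 0.9445–1.056, in PBS and 0.9882, 0.9442–1.034, in cmExoaCD11b). At 1000 UMIs per cell, however, an Itgb2 UMI was found in 25.29% (22.26–28.51) of immature and 19.42% (17.19–21.8) of mature PBS cells, and in 22.64% (20.12–25.33) and 20.35% (18.46–22.35) in cmExoaCD11b. In tumor-state cells it stood at 138.3 and 97.31 CPM, only 0.4856 (0.4412–0.5337) and 0.3912 (0.3331–0.4567) of the mature level, while Itgam was at 0.8401 and 1.005. The summed levels of the alpha and the beta transcript thus did not move in step over the neutrophil states.

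In macrophage-like cells Itgb2 was 144.7 CPM in PBS and 75.19 CPM in cmExoaCD11b, a ratio of 0.5196 (0.396–0.6716), and in monocyte-like cells 147.4 and 99.13 CPM, a ratio of 0.6723 (0.5808–0.7785). Both chains of the CD11b pair were thus lower in cmExoaCD11b in monocyte-like cells. CD8 T-like cells had 142.7 and 168.4 CPM (ratio 1.18, 0.9709–1.439), CD4 T-like cells 157.0 and 104.0 CPM (0.6624, 0.519–0.8445), and B-like cells 40.32 and 44.93 CPM. The CD4 T-like cells also held 12904 CPM of neutrophil markers in PBS and 2478 CPM in cmExoaCD11b, whose part in their Itgb2 ratio was not tested. The NK-like level of Itgb2 was 422.6 CPM (324.0–541.7) in PBS, the library whose NK-like cells held 58936 CPM of neutrophil markers, and 156.1 CPM (121.0–198.3) in cmExoaCD11b, where they held 3362 CPM.

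In single cells the beta transcript was hardly more frequent beside the alpha transcript than without it. At 1000 UMIs per cell, Itgb2 was found in 19.68% (17.64–21.84) of the 1428 PBS neutrophil-like cells with an Itgam UMI and in 17.26% (15.75–18.86) of the others. In cmExoaCD11b the shares were 20.03% (17.86–22.34) and 18.84% (17.37–20.39). The intervals overlapped, and so did those of every other pair examined (Itgal with Itgb2, Itgae or Itga4 with Itgb7, Itga4 or Itga1 with Itgb1) in the classes where they were counted. At this depth most cells with a transcript miss it, so a pairing in the same cell was not detectable.

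Itgal, the alpha chain of LFA-1, was highest in T-lineage and NK-like cells. It stood at 184.3 CPM in PBS and 247.7 CPM in cmExoaCD11b in CD8 T-like cells, a ratio of 1.344 (1.137–1.593) that was 0.8945 after thinning to 1000 UMIs per cell, and at 212.1 and 234.5 CPM in CD4 T-like cells (1.106, 0.9204–1.331). NK-like cells held 190.8 CPM (126.8–275.8) and 412.4 CPM (353.9–477.9), which in cmExoaCD11b was 1.665 times (1.39–1.987) the CD8 T-like level. Neutrophil-like cells nevertheless held 64.09% and 61.7% of its gated UMIs at 64.6 and 76.95 CPM, a ratio of 1.191 (1.125–1.262).

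Itgal was higher in cmExoaCD11b in some of the cells with little of it. Monocyte-like cells, in which Itgam was lower, had 54.04 and 87.53 CPM of Itgal, a ratio of 1.62 (1.32–1.998). Tumor-state neutrophils had 26.65 and 54.95 CPM (2.062, 1.552–2.734), and plasma-like cells 26.68 and 58.96 CPM (2.21, 1.567–3.19). T cell markers moved with these ratios, from 12.57 to 49.69 CPM in monocyte-like, from 15.85 to 30.34 CPM in tumor-state and from 9.578 to 43.09 CPM in plasma-like cells, as did Itgal in the empty droplets, at 75.64 CPM (66.92–85.19) in PBS and 117.4 CPM (106.4–129.1) in cmExoaCD11b. Their part in the ratios was not tested. Mature neutrophils, in which Itgam was also lower, stood at 104.3 and 96.78 CPM of Itgal (0.9281, 0.8421–1.024).

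Itgax, the chain by which dendritic cells are usually told, was highest in them here as well. cDC1-like cells stood at 222.1 CPM (173.4–280.1) in PBS and 96.51 CPM (75.78–121.2) in cmExoaCD11b, and the remaining DC-like cells at 188.5 and 107.2 CPM. Macrophage-like cells had 38.4 and 50.89 CPM, which was 4.167 times (2.661–6.832) and 7.473 times (4.526–12.55) the monocyte-like level. Yet the few DC-like cells held only 17.59% and 21.97% of Itgax UMIs, whereas neutrophil-like cells, at 7.747 and 3.641 CPM, held 38.19% and 33.41%. The neutrophil-like ratio was 0.47 (0.3797–0.5803), at levels below the 13.35 and 12.21 CPM of the empty droplets. This ratio differed between states. In mature cells it was 0.3704 (0.2616–0.5216), from 13.68 to 5.067 CPM, and in cells of no single state 0.3326 (0.206–0.5287). In immature and tumor-state cells it was 1.164 (0.6535–2.117) and 0.8515 (0.5166–1.362), intervals that include 1.

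Itga4 was high in T-lineage, NK-like and dendritic cells. It stood at 472.3 CPM in PBS and 513.6 CPM in cmExoaCD11b in CD8 T-like cells, at 538.4 and 782.9 CPM in NK-like cells, and at 415.8 and 571.7 CPM in the remaining DC-like cells. CD8 T-like cells had 3.259 times (2.798–3.804) and 2.572 times (2.247–2.951) the B-like level, which was 144.9 and 199.7 CPM. B-like Itga4 itself exceeded the empty-droplet level, at 243.5% and 180.4% of it.

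The ratio of Itga4 lay above 1 in all 8 classes compared. Neutrophil-like cells held 20.42 and 33.16 CPM, a ratio of 1.624 (1.474–1.79), macrophage-like cells 51.05 and 83.28 CPM (1.631, 1.232–2.139) and monocyte-like cells 70.79 and 119.8 CPM (1.692, 1.417–2.029). Plasma-like cells had 109.5 and 179.2 CPM (1.638), CD4 T-like cells 326.7 and 462.6 CPM (1.416, 1.231–1.632) and B-like cells a ratio of 1.378 (1.157–1.641). Only the CD8 T-like interval (1.087, 0.976–1.213) included 1. In the empty droplets Itga4 was likewise at 59.51 CPM (51.81–68.04) in PBS and 110.7 CPM (100.1–122.1) in cmExoaCD11b, so free RNA carried the same direction, and its part in the ratios was not tested. The direction did not hold under every setting: on the most deeply sequenced cells alone the ratio was 0.9429 in CD4 T-like cells and 0.9008 in T-lineage cells without Cd4 or Cd8, and after thinning it was 0.9741 in macrophage-like cells.

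Itgb1, the beta chain that nearly all cells share, was found in every class. Epithelial-like cells held 394.7 CPM (359.9–432.0) in PBS and 286.0 CPM (246.2–330.5) in cmExoaCD11b, fibroblast-like cells (13 and 7) 480.6 and 390.4 CPM, and NK-like cells 436.2 and 487.0 CPM. Macrophage-like cells had 217.5 and 177.0 CPM, 1.848 times (1.616–2.12) and 1.776 times (1.464–2.146) the monocyte-like level. CD4 T-like cells were the class in which Itgb1 was most unequal, with 189.8 and 302.2 CPM, a ratio of 1.592 (1.329–1.913). Neutrophil-like cells showed 56.34 and 42.3 CPM (0.7508, 0.7015–0.8036), although their immature cells went the other way, at 38.34 and 43.33 CPM (1.13, 1.018–1.256), and T-lineage cells without Cd4 or Cd8 showed 277.4 and 205.1 CPM (0.7396, 0.6149–0.8914).

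Among neutrophil states Itgb1 ran against Itgb2. Tumor-state cells held 138.8 CPM of Itgb1 in PBS and 95.02 CPM in cmExoaCD11b, 3.254 times (2.809–3.778) and 3.025 times (2.504–3.642) the mature level of 42.64 and 31.41 CPM. Itgal and Itga4 lay on the other side, at 0.2556 (0.2071–0.313) and 0.3175 (0.2291–0.4324) of the mature level in PBS and at 0.5678 (0.4562–0.6998) and 0.6641 (0.4911–0.8816) in cmExoaCD11b. Tumor-state neutrophils thus had less Itgb2, Itgal and Itga4 and more Itgb1 than mature ones in both libraries. The state lists were chosen apart from the integrins, but the cells of a state come from 1 pool per library and are no replicates.

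Itgb7 marked a contrast inside the myeloid cells. Monocyte-like cells held 123.6 CPM in PBS and 103.4 CPM in cmExoaCD11b, 30.56 times (24.62–38.13) and 20.74 times (17.5–24.66) the neutrophil-like level of 4.044 and 4.985 CPM. Macrophage-like cells stood at 36.06 and 40.48 CPM, 0.2918 (0.2386–0.3558) and 0.3915 (0.2689–0.5534) of the monocyte-like level. Outside these, Itgb7 was at 269.0 and 176.1 CPM in cDC1-like, 223.8 and 263.6 CPM in CD4 T-like and 166.6 and 185.4 CPM in CD8 T-like cells. Monocyte-like cells alone held 21.32% and 21.0% of the gated Itgb7 UMIs.

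Itgae, known as CD103 on resident CD8 T cells and on cDC1, was highest in cDC1-like cells. cDC1-like cells held 337.8 CPM (277.1–407.8) in PBS and 194.3 CPM (164.4–228.2) in cmExoaCD11b. CD8 T-like cells held 37.21 CPM (26.82–50.3) and 23.24 CPM (16.68–31.53), so the cDC1-like level was 9.076 times (6.3–13.29) and 8.362 times (5.883–12.12) that of the CD8 T-like class. By amount, cDC1-like cells held 36.86% and 46.13% of the gated Itgae UMIs, neutrophil-like cells 23.55% and 19.5%, and CD8 T-like cells 14.33% and 12.69%, while 293 of 461 and 323 of 360 Itgae UMIs of kept cells lay in gated cells. Less again was found in CD4 T-like cells, at 8.485 and 10.48 CPM, with CD8 over CD4 at 4.386 (2.034–10.82) and 2.218 (1.165–4.512). In CD8 T-like cells the ratio between libraries was 0.6245 (0.3961–0.984), on 42 and 41 UMIs. It was 0.7055 without the cell with most Itgae UMIs in each library and 1.499 on the most deeply sequenced cells alone, so no direction could be given.

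Itga1 lay mainly, though not only, in T-lineage cells. CD8 T-like cells held 130.2 CPM (110.0–153.1) in PBS and 145.7 CPM (128.4–164.6) in cmExoaCD11b, CD4 T-like cells 127.3 and 106.4 CPM, and T-lineage cells without Cd4 or Cd8 110.7 and 106.7 CPM, intervals that overlap within each library except between the first and the other two in cmExoaCD11b. NK-like cells held 20.45 CPM from 3 UMIs and 2.33 CPM from 1 UMI. T-lineage cells together held 70.97% (66.76–74.93) and 74.66% (71.35–77.77) of the gated Itga1 UMIs. Monocyte-like cells held 8.468% and 10.49%, epithelial-like cells 6.25% and 3.542%, and fibroblast-like cells 3.024% and 0.1362%. None of the 3 T-lineage ratios had an interval that left out 1 (1.118, 0.9097–1.379, in CD8 T-like cells). In neutrophil-like cells Itga1 rested on 16 and 45 UMIs, at 0.5437 and 1.1 CPM.

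Inside the CD8 T-like class 47 and 85 cells carried the checkpoint list (Pdcd1, Lag3, Havcr2 and others), and the summed level of Itga1 was lower in them. Those cells held 34.98 and 97.22 CPM of Itga1, against 233.4 and 182.7 CPM in the 94 and 254 cells of neither list. The summed level of Itgb7 went the same way, with 58.91 and 126.0 CPM against 266.5 and 225.8 CPM. So did that of Itgal, with 116.0 and 196.2 CPM against 274.2 and 280.9 CPM, and that of Itgb1, with 250.4 and 214.2 CPM against 365.6 and 324.0 CPM. Itga4 was lower in PBS (364.5 against 608.8 CPM) and close in cmExoaCD11b (522.1 against 535.1 CPM). Itgb2 was close in PBS (143.6 against 149.8 CPM) and lower in cmExoaCD11b (145.8 against 190.0 CPM). Lower summed levels were thus not particular to Itga1. Itgae was not lower in both libraries, at 40.5 and 19.8 CPM against 35.01 and 22.95 CPM. Median depths were 5477 and 4830 UMIs against 4659 and 3462. At equal depth an Itgal UMI was found in 14.89% (6.204–28.31) of the PBS checkpoint cells and 30.11% (21.03–40.5) of those of neither list. In cmExoaCD11b the shares were 21.18% (13.06–31.39) and 20.99% (16.04–26.65), so the Itgal difference was not seen there. Itgb7 shares were 8.511% and 8.235% against 23.66% and 18.52%, lower in the checkpoint cells of both libraries. Their intervals overlapped, which is no test of equality. Itga4 shares in PBS were 36.17% (22.67–51.48) in the checkpoint cells against 44.09% (33.8–54.76), intervals that also overlap. In cmExoaCD11b the Itga4 shares were 40.0% against 39.92%. The 47 PBS checkpoint cells held 543161 UMIs and the 94 cells of neither list 514155, so deep checkpoint cells weigh in the summed levels. Shares of Itga1 at equal depth are not given here.

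**Figure D4:**
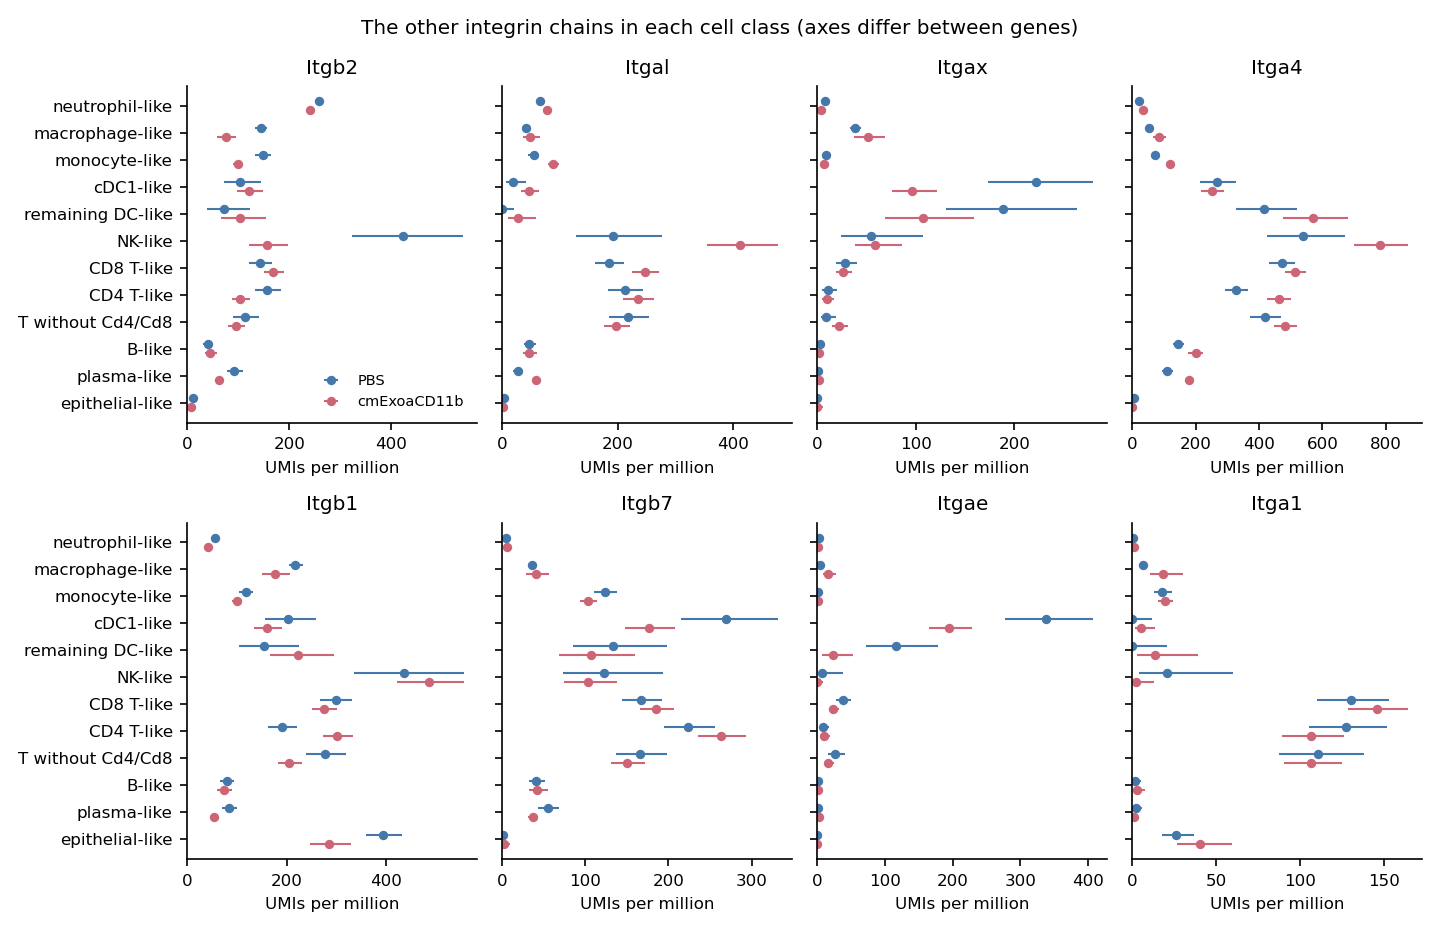
Levels (CPM, linear axes that differ between genes) of the other 8 integrin chains in the cell classes of both libraries, with bars for the 95% counting interval. Itgae peaks in cDC1-like cells (337.8 and 194.3 CPM) and Itga1 in T-lineage cells (110.7 to 130.2 CPM in PBS).

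Between the libraries, 58 of the 72 pairs of a member and a class had at least 50 UMIs, and 9 had a ratio of at least 1.5 while 11 had one of at most 1/1.5. In neutrophil-like cells 4 of 9 members passed this size (Itga4 and Itga1 higher, Itgax and Itgae lower in cmExoaCD11b), where 17.9% of the 11541 genes did so. Macrophage-like cells had 2 of 7 (Itga4 higher, Itgb2 lower) beside a background of 23.5%, and monocyte-like cells 3 of 7 (Itgal and Itga4 higher, Itgam lower) beside 18.7%. CD8 T-like cells had 2 of 9 (Itgam higher, Itgae lower) beside 27.5%, CD4 T-like cells 3 of 7 (Itgb1 higher, Itgam and Itgb2 lower) beside 18.1%, and T-lineage cells without Cd4 or Cd8 had 1 of 7 (Itgam lower) beside 20.2%. B-like cells had 0 of 6 beside 21.1%, with 1 interval, that of Itga4, clear of 1, and plasma-like cells 5 of 6 (Itgal and Itga4 higher, Itgam, Itgb1 and Itgb7 lower) beside 35.5%. In several classes the members' share was close to that of all genes. Of these calls, the direction turned for Itgae in neutrophil-like (1.761) and CD8 T-like cells (1.499) on the most deeply sequenced cells alone, for Itga4 in macrophage-like cells (0.9741) and Itgb7 in plasma-like cells (1.514) after thinning, and for Itgb1 in plasma-like cells with 3 markers (1.049) or a lead of 2 (1.135) asked for in the gate.

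The median member ratio was 0.9786 in neutrophil-like cells (1.089 over all genes tested), 0.8465 in monocyte-like cells (1.062), 1.123 in macrophage-like cells (1.034) and 0.6693 in plasma-like cells (1.083). In CD8 T-like, CD4 T-like, T-lineage without Cd4 or Cd8 and B-like cells it was 1.113 (1.049), 1.106 (1.042), 0.91 (1.043) and 1.01 (1.058).

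**Figure D5:**
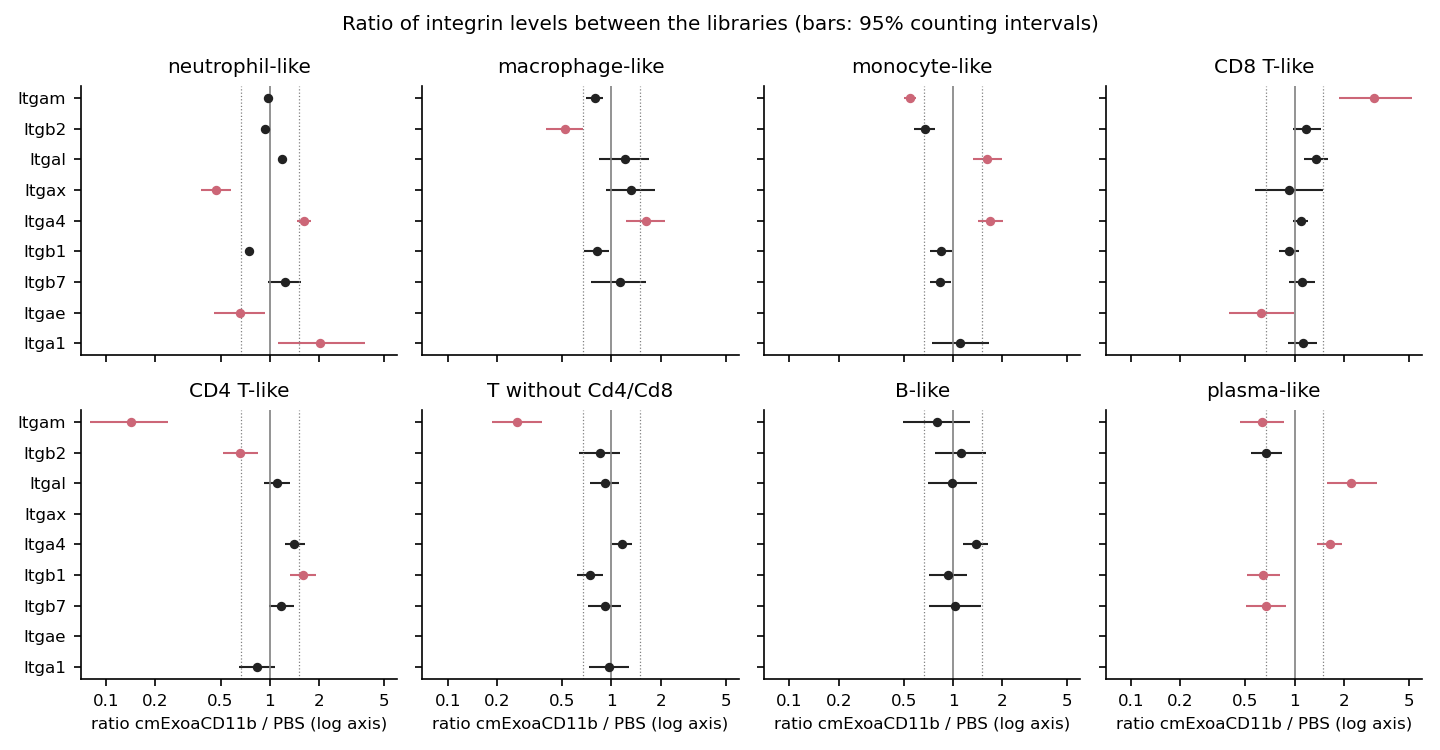
Ratio cmExoaCD11b over PBS (log axis) of each integrin with at least 50 UMIs in the 8 cell classes, with bars for the 95% counting interval, a solid line at 1 and dotted lines at 1.5 and its inverse, red marking ratios past these. Itgam lies at 0.5468 in monocyte-like cells and at 0.9786 in neutrophil-like cells.

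Across the 16 profiles of the 8 classes in both libraries, the genes most like Itgam among 11160 were App (r = 0.9785), the myeloid transcription factor gene Cebpb (0.971) and the C-type lectin gene Clec4d (0.9685), whereas Itgb2 had r = 0.549 with it. Itgal was closest to Ubash3a (0.974), a regulator of T cell receptor signaling, Itgax to Plxdc2 (0.9303) and to the fractalkine receptor gene Cx3cr1 (0.9124), Itgae to the chemokine gene Xcl1 (0.9193) and Itga1 to Chn2 (0.9849). The dendritic and NK-like classes were too small to be among these profiles. The genes closest to Itgax and Itgae were therefore found without the dendritic cells, in which both stood highest. The points share 2 libraries and their free RNA, so these are descriptions.

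Transcripts of the proteins that switch integrins on mostly stayed within 1.5-fold in neutrophil-like cells. Of 16 listed, 14 had enough UMIs, and 2 were at least 1.5 times higher in cmExoaCD11b, where 10.4% of all genes tested were higher and 7.56% lower by that fold. Both are adaptors that link receptors to integrin activation, with Fyb at 96.13 and 172.1 CPM (1.79, 1.714–1.871) and Skap1 at 2.209 and 5.278 CPM (2.39, 1.803–3.204). Skap1 was also higher in macrophage-like (28.33 and 107.6 CPM) and monocyte-like cells (5.027 and 21.44 CPM), where T cell markers were higher as well, at 99.99 and 192 CPM and at 12.57 and 49.69 CPM. Skap1 is itself a leading gene of the T-lineage cells without Cd4 or Cd8, and the part of T cell RNA in these values was not tested. Talin (Tln1) and kindlin-3 (Fermt3), which bind the beta tails, stood at ratios of 1.124 (1.081–1.169) and 1.133 (1.087–1.182) in neutrophil-like cells. Also higher without reaching the fold were Vcl (1.389, 1.326–1.456), Skap2 (1.378, 1.339–1.419), Rassf5 (1.338, 1.258–1.423) and Stk4 (1.274, 1.206–1.346). Apbb1ip was lower (0.8425, 0.8164–0.8694), and the intervals of Rap1a, Rap1b and Rasgrp2 included 1. The median over the 14 was 1.153, beside 1.089 for all genes.

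In CD8 T-like cells 5 of 14 of these genes were higher and 0 lower in cmExoaCD11b, where 16.2% of all genes were higher and 11.3% lower. They were the small GTPase gene Rap1b (465.2 and 765.8 CPM; 1.646, 1.487–1.824), its activator Rasgrp2 (40.76 and 73.12 CPM; 1.794, 1.272–2.57), its effector Apbb1ip (191.4 and 288.5 CPM; 1.508, 1.283–1.776), Vcl (1.809) and Cyth1 (1.546). Macrophage-like cells had 3 of 14 higher and 1 lower (all genes 13.1% and 10.4%), monocyte-like cells 2 and 0 (11.6% and 7.15%), CD4 T-like cells 2 and 1 of 13 (10.3% and 7.78%) and T-lineage cells without Cd4 or Cd8 2 and 0 (11.6% and 8.6%). B-like cells had 1 and 1 (11.03% and 10.1%) and plasma-like cells 6 and 1 (20.6% and 14.95%). Apart from the higher counts in CD8 T-like and plasma-like cells, these counts lay within 2 genes of what the share over all genes gives.

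Of 17 listed ligands, 9 had enough UMIs in neutrophil-like cells, with 1 higher and 3 lower by the fold (all genes 10.4% and 7.56%). Among these, Icam1, which the beta2 integrins bind, was the one with the most neutrophil UMIs past the fold. It stood at 109.2 CPM in PBS and 56.99 CPM in cmExoaCD11b (0.5217, 0.4944–0.5504). In CD8 T-like cells 3 of 5 ligands were higher and 1 lower (all genes 16.2% and 11.3%), and Icam1 stood the other way, at 129.4 and 293.6 CPM (2.27, 1.885–2.746). Fibronectin (Fn1), bound by the Itga4 and Itgb1 pair, was lower in cmExoaCD11b in 7 of the 8 classes, among them macrophage-like (1191 and 519.4 CPM) and monocyte-like cells (1158 and 490.6 CPM), and higher in CD8 T-like cells (30.13 and 56.68 CPM). In lymphoid classes macrophage and monocyte markers moved with it, from 1727 to 314.3 CPM in CD4 T-like cells (Fn1 194.1 and 3.224 CPM) and from 807 to 72.74 CPM in B-like cells (Fn1 94.08 and 7.845 CPM). These markers stood at 2793 and 1366 CPM in the empty droplets, and their part in the Fn1 values was not tested. C3, whose fragment CD11b binds, was 197.8 and 245.1 CPM in neutrophil-like cells (1.239, 1.2–1.28) and 94.67 and 159.7 CPM in monocyte-like cells (1.687, 1.447–1.972).

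Of the 17 other integrin chains, 5 had enough UMIs in neutrophil-like cells, where 10.4% of all genes were higher by the fold and 7.56% lower. Itga6 was higher (6.966 and 10.63 CPM, ratio 1.526, 1.29–1.811) and none was 1.5 times lower. In macrophage-like cells 2 of 5, Itga9 (0.6563) and the alpha-v partner Itgb5 (0.642), were lower, beside 10.4% of all genes. In monocyte-like cells none of 4 passed the fold, beside 18.7%. CD8 T-like cells had 2 of 3 higher (Itga6 and Itgb3, beside 16.2%), and CD4 T-like cells 1 of 4 lower (Itgb5, beside 7.78%). T-lineage cells without Cd4 or Cd8 had 2 of 4 lower (Itga5 and Itgav, beside 8.6%) and B-like cells 1 of 3 (Itga6, beside 10.1%). The Itga6 intervals in CD8 T-like and B-like cells included 1. Plasma-like cells had Itgav at 216.2 and 37.81 CPM (0.1749, 0.1425–0.2137), with Itga5 and Itgb3 lower too, making 3 of 4 lower beside 14.95% of all genes.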

How the data were processed

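Raw UMI counts from Cell Ranger were deposited by the authors for every barcode, empty droplets included (67143628 and 81288480 UMIs). The matrix headers name version 7.1.0, and the paper's methods another. Cells were called by a ranked-UMI cutoff plus a test against empty droplets (false discovery rate 1%, at least 500 UMIs), and needed 200 genes or more and no more than 20% mitochondrial UMIs. Scrublet's automatic threshold marked 0 cells, so the highest scores were removed at 0.8% per 1000 cells (422 and 453 cells). The 13911 kept cells compare with about 7800 immune cells that the study names, whose filter could not be repeated.

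A marker counted as present when its UMIs exceeded the 99th percentile of a Poisson with 10% free RNA. A cell joined the list with most present markers, at least 2 and leading by 1. UMIs were summed per class, with exact Poisson, Clopper-Pearson and conditional intervals (95%). The named genes were the 9 integrins, and for likeness the 3 genes with the highest Pearson correlation of log2(CPM + 10) over the classes. The members and lists were chosen with earlier results of these data known. No test between treatments was possible. The intervals and gates were tested on simulated data. Python 3.11.15, scanpy 1.11.5, numpy 2.4.6, scipy 1.17.1 and pandas 2.3.3 were used.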

Additional observations from a re-analysis of the deposited data

Results flagged for a closer look

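Cells that met no gate still held Itgam, at 266.9 CPM in PBS and 162.0 CPM in cmExoaCD11b, above the B-like background of the same libraries. They were shallow, with medians of 2287 and 1831.5 UMIs, and the empty droplets held 379.9 and 360.4 CPM of this gene. No comparison above uses them.

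The ratio of Itgam between the libraries differed in direction between classes and states. It was above 1 in CD8 T-like cells (3.039) and in immature neutrophil-like cells (1.125). It was below 1 in macrophage-like (0.7934), monocyte-like (0.5468), CD4 T-like (0.142, or 0.9769 with a lead of 2 markers in the gate) and plasma-like cells (0.6294), in T-lineage cells without Cd4 or Cd8 (0.2668), and in the mature (0.8127) and unsplit (0.8815) neutrophil-like cells. With 1 library per treatment the difference between these classes was not tested, and the values that move with each ratio stand beside it in the results.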

How the results depend on the processing

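Each treatment was 1 pool of cells, so differences between mice cannot be seen and intervals understate the error. Free RNA was rich in Itgam, and depth differed between classes and states. No paired analysis was possible because each treatment has a single library, from different mice.

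Over 734 recomputed values, 612 stayed within their interval, 107 moved out of it and 15 turned direction. A turn was counted only where the main interval left out 1. Other ratios that crossed 1 are among the first 2 counts, such as the neutrophil-like Itgam ratio at 1.08 (main value 0.9786). The neutrophil-like Itgam ratio was 0.9526 without doublet removal, 1.08 with the ranked-UMI cutoff alone, 0.8242 with every cell weighted equally and 0.8109 thinned to 1000 UMIs. By depth, a split added after seeing the data, it was 0.6977, 0.7398 and 1.26 in cells from 500, 2000 and 20000 UMIs. The monocyte-like Itgam ratio was 0.5972 with 3 markers required, 0.6554 thinned and 0.6193 in cells from 5000 UMIs. The neutrophil-like percentage of gated Itgam UMIs in PBS was 78.69 without doublet removal, 72.12 with the cutoff alone, 79.3 with 3 markers, 80.96 with a lead of 2, 77.3 with 20% free RNA, 87.87 with equal weights, 88.59 thinned and 79.05 with free RNA subtracted. In cmExoaCD11b it was 90.27 without doublet removal, 91.35 with 3 markers, 92.76 with a lead of 2, 89.65 with equal weights, 89.41 thinned and 92.6 with free RNA subtracted. The 20 member and class pairs past the fold became 13 with a lead of 2, 9 thinned, 6 at 2-fold and 31 with a minimum of 1 UMI. These counts stand without the share over all genes at the same settings, and so are no result about the integrins.

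Among the counted turns, those with the cutoff alone were of Itgae in neutrophil-like (1.761) and CD8 T-like cells (1.499) and of Itga4 in CD4 T-like (0.9429) and T-lineage cells without Cd4 or Cd8 (0.9008), the last also with 5% free RNA (0.9127). In plasma-like cells Itgb2 and Itgb1 turned with 3 markers (1.043 and 1.049) and with a lead of 2 (1.06 and 1.135). Thinned, Itgb2 turned in neutrophil-like cells (1.07), Itgam (1.063) and Itga4 (0.9741) in macrophage-like, Itgal (0.8945) in CD8 T-like, and Itgb2 (1.703) and Itgb7 (1.514) in plasma-like cells. The causes were not tested.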
